A study of Mus musculus with 27 samples.

Results

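Gene expression was compared by RNA-Seq between whole hearts of C57BL/6 mice aged 4 weeks, in the juvenile period, and 14 weeks, in early adulthood, with 3 heart samples at each age. The comparison comprised 6 of the 27 samples of the series, which also covered hearts of postnatal day 1, 1 year and 1.5 years and PDGFRα-expressing cardiac fibroblasts of the same ages. The members were the genes located off chromosomes X and Y, 21205 of the 22855 genes in the count tables, and 17052 of them passed a filter on low counts and were tested. Only age separated the groups by label: the mice were of 1 strain, and no treatment, transgene or genotype was given. The study's methods give 3 animals per time point. The labels do not say whether each sample is 1 animal, so n counts samples here. RNA was taken from heart tissue without sorting, so that a lower level of a gene can mean fewer cells of a type or less RNA per cell, and these cannot be told apart here. The comparison addressed which genes of the heart still changed between the juvenile and the adult animal, extracellular matrix genes in particular.

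Between weaning and adulthood the mouse heart grows mainly by enlargement of its muscle cells, which have largely left the cell cycle. Fibroblasts and vessel cells lay down the collagen network and the basement membranes that hold the muscle cells and capillaries together. After birth the muscle cells change from fetal to adult contractile proteins and ion channels and rely increasingly on the oxidation of fatty acids for energy.

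The 4-week samples held 66863034, 67984404 and 67148726 counts and the 14-week samples 64467352, 46091271 and 58169227. Genes of the mitochondrial genome took 26.7%, 14.9% and 20.1% of the counts at 4 weeks and 29.6%, 34.5% and 27.7% at 14 weeks. Levels are given as CPM, counts per 1000000 counts after scaling by the TMM method, and differences as log2 fold changes of 14 weeks over 4 weeks with their SE. The heart muscle gene Myh6, the main adult myosin heavy chain of the mouse, was between 21146 and 33874 CPM in all 6 samples. In a principal component analysis of the 6 samples, 4-week replicates 2 and 3 stood apart from each other and from the remaining 4 samples.

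The labels did not give the sex of the animals, and genes of the sex chromosomes differed between the ages and within the 4-week group. Xist, the RNA that coats the inactive X chromosome, was 72.7, 6.55 and 148 CPM in 4-week replicates 1, 2 and 3 and 0.109, 0.325 and 0.120 CPM at 14 weeks. The Y-linked gene Ddx3y was 31.8, 6.49 and 1.73 CPM at 4 weeks and 30.9, 41.2 and 31.3 CPM at 14 weeks. All 14-week samples thus had low Xist and high Ddx3y, 4-week replicate 3 had the reverse, and the other 4-week samples held both transcripts. Whether each of those other samples held tissue of only 1 animal cannot be told from the labels. Sex-linked expression therefore moved with age. When the ratio of Y-linked genes to Xist entered the fit beside age, 3 genes passed the threshold in place of 276, and 275 of the 276 kept their direction. For those that no longer passed, a part of sex-linked expression in the difference between the ages cannot be told apart from age.

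Of the 17052 genes, 276 (1.62%) differed between the ages with an adjusted p under the threshold of 0.05, from the F test of edgeR's quasi-likelihood fit with Benjamini-Hochberg adjustment over the genes tested. There were 132 genes (0.774%) that rose to 14 weeks and 144 (0.844%) that fell, and 172 (1.01%) of them changed at least 2-fold, 74 upward (0.434%) and 98 downward (0.575%). Counts of calls in the lists below are to be read beside these shares of all genes. For 275 of the 276, the samples of the ages did not overlap, the exception being Postn, against 3481 genes without overlap (20.4%) among all genes tested. The falls included genes of the collagen matrix, growth factors, the cell cycle and the interferon response, and the rises genes of ion channels, the sarcomere, fatty acid oxidation and amino acid breakdown. The median log2 fold change over all genes was 0.00. With library size alone in place of TMM it was -0.24, and 61 genes rose and 412 fell, so directions below are relative to the bulk of genes. The count depended on single samples: it was 256, 217 and 99 without 4-week replicate 1, 2 or 3, and 100, 74 and 81 without 14-week replicate 1, 2 or 3. DESeq2 called 859 genes, with all 276 among them.

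**Figure D1:**
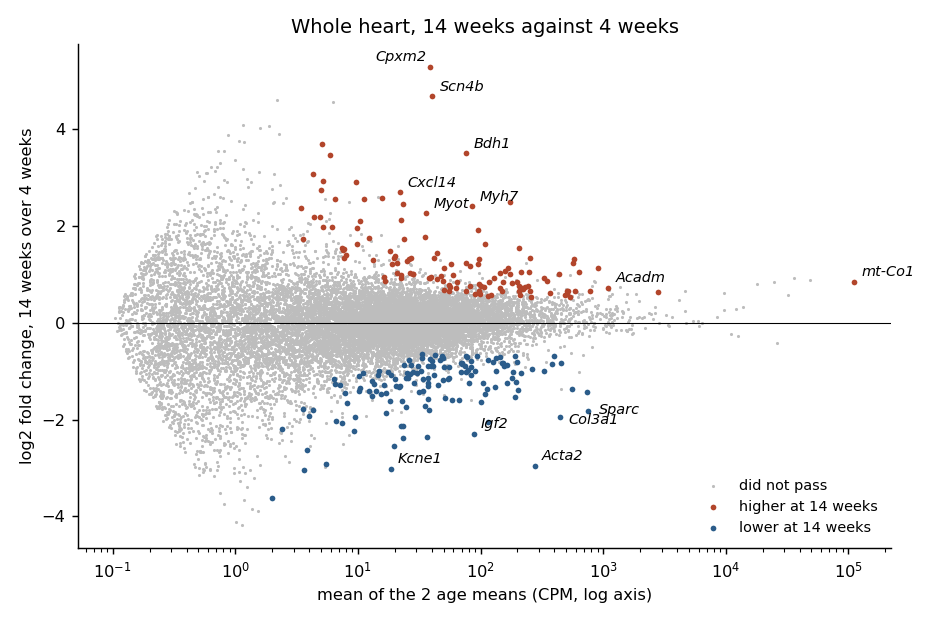
Log2 fold change of 14 weeks over 4 weeks against the mean level in CPM (log axis) for the 14875 genes with a mean of at least 0.1 CPM at both ages; red and blue points are the genes that passed the test. Scn4b, Bdh1 and Cpxm2 lie at the top, with log2 fold changes of 4.67, 3.50 and 5.28, and Acta2 and Kcne1 near the bottom, with -2.95 and -3.01.

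The fibrillar collagens, the rope-like collagens of the interstitium, were lower at 14 weeks. Of 11 genes tested, 5 fell and none rose, with a median log2 fold change of -1.38. Col3a1 (chr1:45311538-45349706, + strand), the chain of collagen III, was 620, 597 and 890 CPM at 4 weeks and 213, 129 and 202 CPM at 14 weeks. Even the highest 14-week heart was far under the lowest 4-week heart. Its log2 fold change was -1.95 ± 0.22 (SE, n = 3 per age, adjusted p = 2e-04, edgeR). Col1a1 (chr11:94936224-94953042, + strand), which encodes the main chain of collagen I, was 267, 290 and 302 CPM at 4 weeks and 102, 79.3 and 115 CPM at 14 weeks. The 3 samples of each age were close together and the ages wide apart, with a log2 fold change of -1.54 ± 0.16 (adjusted p = 1.4e-04, edgeR). Its partner chain Col1a2 changed by -1.38 ± 0.19 on the log2 scale, and Col5a1 and Col5a2, chains of the collagen V that starts fibril assembly, by -1.64 ± 0.18 and -1.28 ± 0.26. Col1a1, Col1a2, Col3a1 and Col5a1 passed without any of the 6 samples, whereas Col5a2 did not pass without 3 of them. Summed over the list, the level was between 1427 and 1865 CPM at 4 weeks and between 390 and 571 CPM at 14 weeks. Coordinates here and below are those of GRCm38, taken from GENCODE M21.

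The drop extended to genes that fold, cut and cross-link collagen. Of 31 such genes, 6 fell and none rose, with a median of -0.59. Sparc (chr11:55394500-55423183, - strand), a secreted collagen-binding protein, was 1013, 1183 and 1327 CPM at 4 weeks and 370, 304 and 326 CPM at 14 weeks. Its levels did not come near each other at the 2 ages, and its log2 fold change of -1.82 ± 0.15 had the second smallest adjusted p of all falls (1.1e-05, edgeR). Serpinh1, the collagen chaperone of the endoplasmic reticulum, fell from 581 ± 48.8 to 326 ± 32.2 CPM (mean ± SD, n = 3). Loxl2, a cross-linking oxidase, fell from 37.8 ± 7.55 to 11.2 ± 4.46 CPM. Bmp1 and Adamts2, which trim the ends of procollagens, had log2 fold changes of -1.08 ± 0.24 and -1.15 ± 0.26, and Plod1, a lysyl hydroxylase, of -0.73 ± 0.17. Lox, the founding member of the lysyl oxidase family, was 7.16, 9.82 and 6.85 CPM at 4 weeks and 4.45, 4.08 and 3.44 CPM at 14 weeks. The samples did not overlap, but its log2 fold change of -0.99 ± 0.39 did not pass (adjusted p = 0.270, edgeR). Without 1 sample in turn, between 1 and 7 genes of the list passed, with 1 left when 14-week replicate 2 was taken out.

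**Figure D2:**
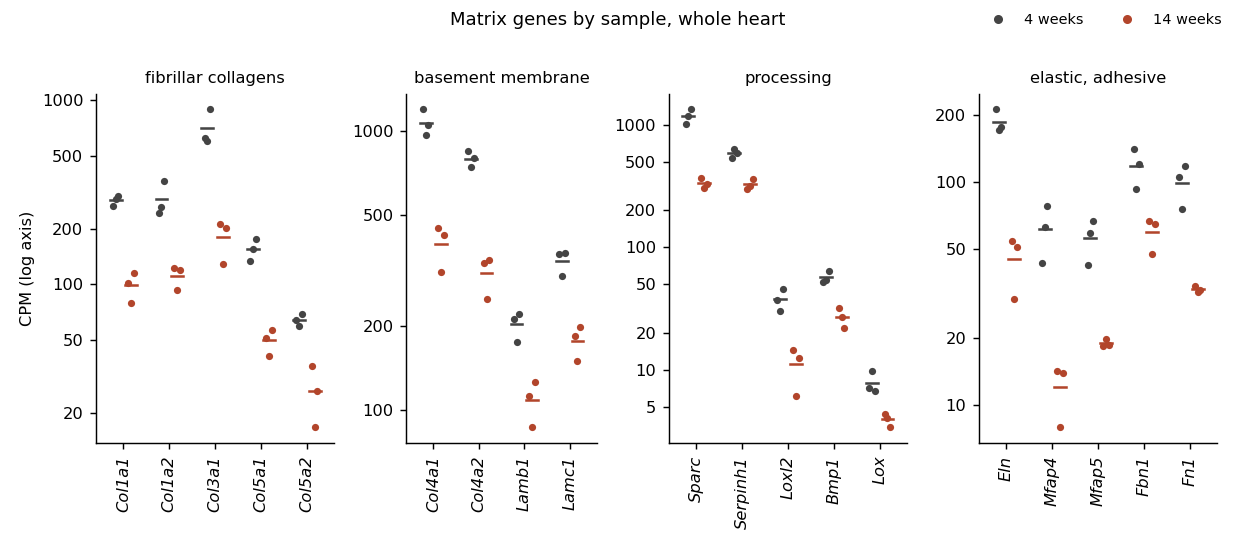
Level in CPM (log axes) of matrix genes in each of the 6 whole heart samples, with 4 weeks in grey and 14 weeks in red and a bar at the mean of 3 samples. In every gene shown the 3 samples of 14 weeks lie under the 3 of 4 weeks, and Lox is the gene shown that did not pass the test.

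Basement membrane genes, whose products form the sheet around muscle cells and capillaries, followed the same direction. Of 20 tested, 6 fell and none rose, and the median was -0.81. Col4a1 and Col4a2 encode the chains of the main collagen IV molecule and lie head to head on chromosome 8, with annotated starts at 11312826 (- strand) and 11312805 (+ strand). Col4a1 was 1194, 969 and 1051 CPM at 4 weeks and 449, 313 and 424 CPM at 14 weeks. Col4a2 was 851, 741 and 798 CPM at 4 weeks and 336, 251 and 344 CPM at 14 weeks. Both genes were lowest in 14-week replicate 2 and changed by similar amounts, -1.44 ± 0.23 and -1.36 ± 0.22 on the log2 scale (adjusted p = 0.00330 and 0.00408, edgeR). The laminin chains Lamb1 and Lamc1 had log2 fold changes of -0.90 ± 0.16 and -0.95 ± 0.19, and Col15a1 and Col18a1, which anchor basement membranes, of -1.22 ± 0.27 and -1.31 ± 0.30. Perlecan (Hspg2) was 854 ± 62.0 CPM at 4 weeks and 421 ± 40.5 at 14 weeks without passing (adjusted p = 0.0519). Counts for the list ran from 2 to 7 when 1 sample was left out, being 2 without 4-week replicate 3 or 14-week replicate 2.

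Among 21 other collagens, 4 fell and none rose (median -0.97). Col14a1, which binds fibril surfaces, was 28.2, 33.1 and 52.9 CPM at 4 weeks and 7.89, 7.17 and 10.9 CPM at 14 weeks, a log2 fold change of -2.13 ± 0.26 (adjusted p = 3.4e-04, edgeR). Col6a1 and Col6a2, chains of the beaded filaments around cells, had log2 fold changes of -1.25 ± 0.17 and -1.15 ± 0.16. Col26a1, a little studied collagen, was 2.07, 4.31 and 4.66 CPM at 4 weeks and 0.410, 0.0827 and 0.395 CPM at 14 weeks.

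Several elastic fibre and adhesive matrix genes fell as well: 8 of 38 fell, 1 rose, and the median was -0.62. Elastin (Eln, chr5:134702593-134747323, - strand), the rubber-like core of vessel walls, was 212, 171 and 176 CPM at 4 weeks and 54.4, 29.9 and 50.9 CPM at 14 weeks. Every juvenile heart was far above every adult heart. Its log2 fold change was -2.05 ± 0.22 (adjusted p = 1.7e-04, edgeR). The microfibril genes Mfap4, Mfap5, Mfap2 and Fbn1 had log2 fold changes of -2.36 ± 0.27, -1.57 ± 0.24, -1.80 ± 0.37 and -0.99 ± 0.22, and the remaining falls were Emilin2, Fn1 and Postn. Fibronectin (Fn1) fell from 99.6 ± 22 to 33.0 ± 1.19 CPM. Postn, a matricellular protein of young and injured connective tissue, was 73.0, 26.7 and 129 CPM at 4 weeks and 28.2, 25.6 and 23.4 CPM at 14 weeks. Its lowest 4-week sample lay inside the 14-week range, the call (adjusted p = 0.0438, edgeR) was lost in 5 of 6 fits that left out a sample, and its log2 fold change of -1.56 turned to 0.16 with the sex-linked ratio in the fit. Efemp1, a fibulin, was the member that rose, from 3.82 ± 0.319 to 11.1 ± 2.60 CPM, and its call was lost in all 6 such fits. Without 1 sample in turn, between 4 and 6 genes of the list passed.

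Of the small leucine-rich proteoglycans, which coat collagen fibrils, 0 of 10 passed with edgeR and 0 with DESeq2, and 2 had an unadjusted p under 0.05. Their median was -0.05, with 6 lower and 4 higher in the fit, and -0.30 with 1 fall when scaled by library size alone. Of 35 matrix metalloproteinase, TIMP and ADAMTS genes, 2 fell (5.71%, beside 1.62% of all genes that passed). Mmp2, a gelatinase of fibroblasts, was 125, 179 and 181 CPM at 4 weeks and 61.9, 56.7 and 70.5 CPM at 14 weeks, and Mmp14, the membrane protease that activates it, had a log2 fold change of -0.88 ± 0.18. Their ages did not overlap. Mmp3 was 2.04, 3.00 and 0 CPM at 4 weeks and 4.61, 3.67 and 5.47 CPM at 14 weeks, which did not pass (log2 fold change 1.45 ± 0.98, adjusted p = 0.585, edgeR) although all 14-week samples were higher. Mmp19 and Timp2 had log2 fold changes of 0.09 ± 0.63 and -0.21 ± 0.19 and did not pass. In the TGF-β and BMP pathway, where 2.38% passed beside 1.62% of all genes, 1 of 42 genes fell. It was Fstl1, a secreted follistatin-like protein, with 188 ± 31.7 CPM at 4 weeks and 75.5 ± 8.09 at 14 weeks (log2 fold change -1.32 ± 0.16, adjusted p = 3e-04, edgeR). Smad1 and the receptor Tgfbr1 had log2 fold changes of -0.42 ± 0.24 and 0.06 ± 0.55 and did not pass.

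Acta2 (chr19:34241090-34255590, - strand), the smooth muscle actin also made by immature heart muscle and by activated fibroblasts, had the smallest adjusted p of all genes. It was 383, 578 and 512 CPM at 4 weeks and 62.1, 74.6 and 53.5 CPM at 14 weeks. No 14-week heart came near the lowest 4-week heart, and the log2 fold change was -2.95 ± 0.22 (adjusted p = 7.8e-06, edgeR). With Sparc and the chemokine gene Cxcl14 it was 1 of the 3 genes that still passed with the ratio of Y-linked genes to Xist in the fit. Of 20 markers of smooth muscle cells and pericytes, 2 fell: Acta2 and Pdgfrb, the receptor that marks pericytes, which went from 113 ± 14.3 to 53.0 ± 5.09 CPM. The list had a median of -0.45 and a summed level between 3873 and 4583 CPM at 4 weeks and between 3769 and 4007 CPM at 14 weeks. Myl9, the smooth muscle myosin light chain, is not in this list and was named outside the rule for naming genes. It fell by 1.81 on the log2 scale, with an SE of 0.26 (adjusted p = 0.00188, edgeR).

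Skeletal actin (Acta1, chr8:123891769-123894751, - strand), the sister gene used in the sarcomere, went the other way. It was 67.3, 164 and 86.9 CPM at 4 weeks and 293, 448 and 182 CPM at 14 weeks. The spread was wide at both ages and the gap between them narrow, with a log2 fold change of 1.54 ± 0.33 (adjusted p = 0.0252, edgeR). The call was lost without 4-week replicate 1 or 3 and without 14-week replicate 1 or 2. The 250 bases before the RefSeq starts of both actin genes are shown because these genes are textbook targets of serum response factor, whose site is the CArG box. Capitals mark CC, 6 letters of which at least 5 are A or T, and GG, a pattern that reads alike on both strands. Of all promoters off X and Y in the table, 8.53% held this pattern in their 250 bases before the start. By gene, 9.48% of the genes tested with a promoter held it.
Acta2 (chr19:34255374-34255623, - strand, GRCm38.p6): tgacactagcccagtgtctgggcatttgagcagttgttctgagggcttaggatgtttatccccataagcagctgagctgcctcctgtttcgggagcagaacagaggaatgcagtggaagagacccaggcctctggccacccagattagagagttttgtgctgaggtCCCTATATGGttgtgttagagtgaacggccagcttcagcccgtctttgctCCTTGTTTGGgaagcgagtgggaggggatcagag
Acta1 (chr8:123894776-123895025, - strand, GRCm38.p6): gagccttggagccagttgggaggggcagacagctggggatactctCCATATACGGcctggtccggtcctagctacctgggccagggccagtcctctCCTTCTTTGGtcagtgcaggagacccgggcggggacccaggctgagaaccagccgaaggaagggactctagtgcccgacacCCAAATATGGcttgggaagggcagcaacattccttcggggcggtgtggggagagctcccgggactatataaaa
The Acta2 window held 2 matches, beginning 84 and 34 bases before the RefSeq start, and the Acta1 window held 3, beginning 205, 154 and 73 bases before it. The GENCODE start of Acta2 given above lies further out. By it, most of the Acta2 window, with both matches, is inside the gene, whereas the Acta1 window lies before the gene by both. The pattern was thus present before the RefSeq start of a gene that fell and of a gene that rose. It was found in 9 of 24 adult sarcomere genes with a promoter in the table, 7 of 17 fetal, atrial and skeletal sarcomere genes, and 1 of 15 smooth muscle and pericyte markers.

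Among 29 genes of the adult sarcomere, 3 rose and none fell, with a median of 0.12, or -0.12 when scaled by library size alone. Myot, a Z-disc protein, was 13, 13.9 and 10.6 CPM at 4 weeks and 51.9, 62.5 and 64.9 CPM at 14 weeks (log2 fold change 2.26 ± 0.26, adjusted p = 2e-04, edgeR). Ankrd1, a stretch-responsive ankyrin repeat protein, rose from 336 ± 27.9 to 795 ± 87.5 CPM, and Nrap, which guides myofibril assembly, from 608 ± 76.3 to 951 ± 27.6 CPM. In the list of fetal, atrial and skeletal isoforms, 2 of 20 rose and 1 fell. The fall was Acta2, and the rises were Acta1 and Myh7. Myh7 (chr14:54970684-54994626, - strand), the slow myosin heavy chain that mouse hearts use before birth, was 23.4, 33.1 and 24.8 CPM at 4 weeks and 191, 138 and 98.6 CPM at 14 weeks. Its lowest 14-week heart was well above its highest 4-week heart, with a log2 fold change of 2.40 ± 0.50 (adjusted p = 0.0222, edgeR). For comparison it was 4150 CPM on postnatal day 1, 148 at 1 year and 385 at 1.5 years, ages that also differ in the sex-linked expression given above. Without 4 of the 6 samples the call of Myh7 was lost, and its direction was the same in all fits. The natriuretic peptide and receptor list had 0 of 9 genes passing with edgeR and 0 with DESeq2, and 1 with an unadjusted p under 0.05. Nppa was 94.0, 330 and 123 CPM at 4 weeks and 105, 117 and 88.2 CPM at 14 weeks, with overlapping ages.

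Several growth-related genes fell. Of 31 genes of the insulin-like growth factor axis and of imprinted growth genes, 4 fell and none rose (median -0.37). Igf2 (chr7:142650766-142666816, - strand), the fetal growth factor, was 130, 147 and 160 CPM at 4 weeks and 25.2, 29.1 and 35.1 CPM at 14 weeks. Its levels varied little within an age, and the log2 fold change was -2.29 ± 0.21 (adjusted p = 4.3e-05, edgeR). H19, the noncoding RNA of the same imprinted cluster, was 62.7, 77.1 and 90.5 CPM at 4 weeks and 31.1, 28.0 and 44.8 CPM at 14 weeks, a smaller log2 fold change of -1.15 ± 0.23. Mest, another imprinted gene of fetal growth, fell from 36.6 ± 7.51 to 8.35 ± 0.836 CPM, and the binding protein gene Igfbp7 from 255 ± 26.5 to 144 ± 11.0 CPM. On postnatal day 1 the means were 1875 CPM for Igf2, 2844 CPM for H19 and 398 CPM for Mest. At 1 year Igf2 had a mean of 75.6 CPM and H19 of 96.9 CPM, both above their means at 14 weeks. The list had between 2 and 7 calls when 1 sample was left out, with 2 without 14-week replicate 2 and 7 without 4-week replicate 2.

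Cell cycle and DNA replication genes were low at 4 weeks and lower at 14 weeks. Of 61 tested, 5 fell and none rose, and 56 had a lower fitted level at 14 weeks, with a median of -1.25 against 0.00 over all genes. Ccna2, the cyclin of S phase, was 9.23, 9.98 and 9.74 CPM at 4 weeks and 2.23, 1.02 and 0.553 CPM at 14 weeks (log2 fold change -2.92 ± 0.39, adjusted p = 9.6e-04, edgeR). Top2a, the topoisomerase that untangles sister chromosomes, was 13.8, 9.93 and 22.2 CPM at 4 weeks and 3.42, 3.17 and 3.12 CPM at 14 weeks. Cdk1, the kinase that drives mitosis, was 3.86, 7.51 and 8.22 CPM at 4 weeks and 1.25, 0.965 and 0.158 CPM at 14 weeks. For all 3 genes each 14-week heart was under every 4-week heart. The spindle factor Tpx2 and the replication helicase subunit Mcm5 were the other falls, with log2 fold changes of -2.63 ± 0.43 and -2.02 ± 0.47. Ccna2 and Tpx2 passed without any of the 6 samples, and the list had between 2 and 4 calls in those fits. Ccnd1, a cyclin of G1 that is also made outside dividing cells, was 106 ± 22.7 and 92.4 ± 5.56 CPM and did not pass (adjusted p = 0.856). Lmnb1, a protein of the nuclear lamina, fell from 13.9 ± 3.63 to 6.44 ± 0.446 CPM, with the call lost in 5 of 6 fits that left out a sample. Among 15 cell cycle inhibitors, 0 passed with edgeR, 2 with DESeq2, and 4 had an unadjusted p under 0.05.

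The windows before Cdk1 and Top2a are shown because mitotic genes are known to share CCAAT boxes and the cell cycle genes homology region, here searched as TTTGAA or TTCGAA. Capitals mark these letters read on either strand, and in these windows no match of one pattern overlapped a match of the other.
Cdk1 (chr10:69352913-69353162, - strand, GRCm38.p6): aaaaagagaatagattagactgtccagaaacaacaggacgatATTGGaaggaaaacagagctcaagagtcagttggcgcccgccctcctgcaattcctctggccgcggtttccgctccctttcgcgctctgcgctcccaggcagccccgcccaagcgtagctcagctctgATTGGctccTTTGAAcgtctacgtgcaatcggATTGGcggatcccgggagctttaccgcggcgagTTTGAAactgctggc
Top2a (chr11:99024190-99024439, - strand, GRCm38.p6): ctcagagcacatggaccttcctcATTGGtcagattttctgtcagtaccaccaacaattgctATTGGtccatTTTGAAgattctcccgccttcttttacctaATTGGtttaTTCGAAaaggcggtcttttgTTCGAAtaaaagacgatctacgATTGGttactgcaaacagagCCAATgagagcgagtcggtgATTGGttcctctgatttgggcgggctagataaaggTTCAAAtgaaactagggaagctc
Cdk1 had 3 CCAAT matches and 2 of the other pattern, and Top2a had 6 and 4. A CCAAT match was found in 34 of the 47 cell cycle genes with a promoter in the table (72.3%). By gene, it was found in 39.4% of all genes tested with a promoter, and by promoter in 33.7% of all off X and Y. The other pattern was found in 15 of the 47 (31.9%), in 14.6% of all genes tested with a promoter, and in 16.8% of all promoters.

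Ion channel genes held some of the widest differences. Of 36 potassium, sodium and pacemaker channel genes, 3 rose and 1 fell (median 0.07). Scn4b (chr9:45138395-45154152, + strand), a beta subunit of sodium channels, was 1.94, 3.58 and 3.63 CPM at 4 weeks and 68.4, 90.5 and 75.2 CPM at 14 weeks. The gene was near the low end of expression in every juvenile heart and well expressed in every adult one, with a log2 fold change of 4.67 ± 0.62 (adjusted p = 9.4e-04, edgeR). At 1 year and 1.5 years its means were 74.4 and 52.5 CPM, and on postnatal day 1 the mean was 0.377 CPM. Scn4a, the pore-forming sodium channel best known from skeletal muscle, was 9.58, 8.02 and 7.86 CPM at 4 weeks and 31.1, 42.8 and 36.0 CPM at 14 weeks (log2 fold change 2.11 ± 0.27, adjusted p = 6.1e-04, edgeR). Kcnv2, a modifier subunit of voltage-gated potassium channels, rose from 3.97 ± 1.30 to 16.9 ± 1.73 CPM, but the call was lost in every fit that left out a sample. Kcne1 (chr16:92345982-92359468, - strand), the small subunit that forms the slow delayed rectifier with Kcnq1, was 24, 53.7 and 21.2 CPM at 4 weeks and 2.53, 5.71 and 4.13 CPM at 14 weeks. It had the widest fall among the protein-coding genes that reached 10 CPM, -3.01 ± 0.53 on the log2 scale (adjusted p = 0.00857, edgeR), and was not called without 14-week replicate 1 or 3. Among 38 calcium handling genes 0 passed with edgeR and 4 with DESeq2, and 10 had an unadjusted p under 0.05. The calcium pump Atp2a2 was 10870 ± 1530 and 13187 ± 891 CPM, and its inhibitor Pln 3493 ± 446 at 4 weeks and 4706, 4882 and 4824 CPM at 14 weeks (adjusted p = 0.414 and 0.0925). Of 43 cardiac transcription factors 0 passed with edgeR and 2 with DESeq2, and 8 had an unadjusted p under 0.05.

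**Figure D3:**
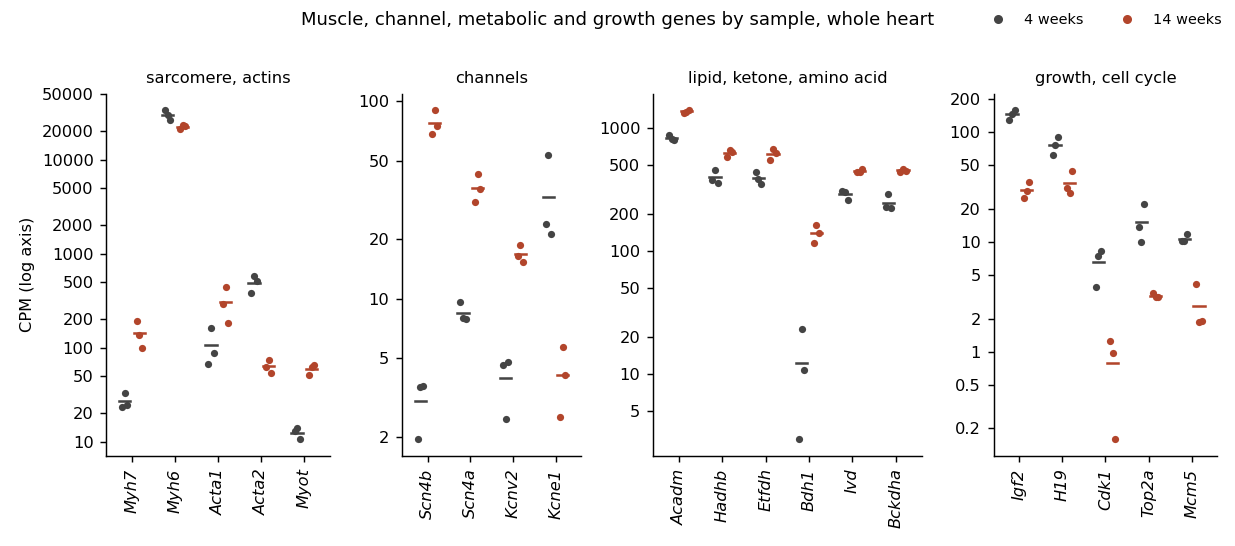
Level in CPM (log axes) of sarcomere, channel, metabolic and growth genes in each of the 6 whole heart samples, with 4 weeks in grey and 14 weeks in red and a bar at the mean of 3 samples. Scn4b, Bdh1 and Myh7 are higher and Acta2, Kcne1 and Igf2 lower in all 3 samples of 14 weeks, and Myh6 is the gene shown that did not pass the test.

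Genes of fatty acid uptake and oxidation tended upward by small amounts. Of 53 tested, 6 rose and 2 fell, 43 had a higher fitted level at 14 weeks, and 29 were higher without overlap, against 10.6% of all genes. The median was 0.41. With library size alone the median was 0.16 and 2 rose and 3 fell, and with DESeq2 14 rose and 3 fell. Acadm, the medium-chain dehydrogenase of beta-oxidation, was 880, 814 and 804 CPM at 4 weeks and 1338, 1372 and 1412 CPM at 14 weeks. The samples of each age lay close together, with a log2 fold change of 0.72 ± 0.14 (adjusted p = 0.0131, edgeR). Hadhb, a subunit of the trifunctional protein, Etfdh, which passes the electrons on to ubiquinone, and Acad11 each had a log2 fold change of 0.66, with SEs of 0.15, 0.14 and 0.14. Vldlr, a receptor for triglyceride-rich particles, rose from 228 ± 64.5 to 433 ± 13.9 CPM, and Acsl6, an acyl-CoA synthetase, from 5.69 ± 1.81 to 19 ± 4.70 CPM. The falls were Ucp2, an uncoupling protein of the inner membrane (log2 fold change -1.48 ± 0.24), and Fabp5, the fatty acid carrier of vessel cells (-1.25 ± 0.20). Both falls passed without any of the 6 samples, whereas none of the rises passed without 4-week replicate 3 or without 14-week replicate 2 or 3.

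The ketone enzyme Bdh1 (chr16:31422280-31458901, + strand), which oxidizes beta-hydroxybutyrate, was 2.93, 23.4 and 10.7 CPM at 4 weeks and 116, 162 and 141 CPM at 14 weeks. Its 4-week levels were scattered but all far below the adult ones, with a log2 fold change of 3.50 ± 0.47 (adjusted p = 9.6e-04, edgeR). The mean was 2.80 CPM on postnatal day 1, 135 at 1 year and 268 at 1.5 years. Acat1, the mitochondrial thiolase of ketone and isoleucine breakdown, had a log2 fold change of 0.54 ± 0.13 and lost its call in every fit without a sample, as well as with library size alone. It and Bdh1 were the 2 of 12 creatine kinase and ketone body genes that rose, and none fell. Of 25 genes of branched-chain amino acid breakdown, a list drawn up after the data were seen, 5 rose, 24 had a higher fitted level and 15 were higher without overlap, against 10.6% of all genes (median 0.33). With library size alone 0 passed and the median was 0.09, and with DESeq2 8 rose. Among them Ivd, which acts on leucine, rose from 292 ± 26.8 to 449 ± 12.9 CPM and Bckdha, a subunit of the rate-limiting dehydrogenase, from 249 ± 36.5 to 454 ± 14.1 CPM. Aldh6a1 and Mmab, which act further along the valine and propionate routes, had log2 fold changes of 0.81 ± 0.19 and 0.91 ± 0.21. Leaving out 1 sample gave at most 2 calls in the list, and 0 without 4-week replicate 3 or any 14-week replicate.

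Of 37 genes of glucose uptake and glycolysis, 1 rose and 1 fell (5.41% beside 1.62% of all genes, median 0.10, or -0.15 with library size alone). Pdk1, a kinase that shuts off pyruvate dehydrogenase, rose from 102 ± 6.82 to 213 ± 18.1 CPM (log2 fold change 1.06 ± 0.16, adjusted p = 0.00274, edgeR). Pfkp, the platelet-type phosphofructokinase, fell from 102 ± 4.69 to 50.5 ± 3.80 CPM. The sister kinase Pdk4 was 206, 105 and 106 CPM at 4 weeks and 276, 268 and 441 CPM at 14 weeks without passing (adjusted p = 0.0633). Of 29 genes of cholesterol and fatty acid synthesis and uptake, 2 fell, the lipogenic Fasn (log2 fold change -0.90 ± 0.20) and Scd2 (-0.77 ± 0.19), and neither passed in any fit that left out a sample.

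The nuclear-encoded respiratory chain changed little. Of its 78 genes 0 passed with edgeR and 1 with DESeq2, 1 had an unadjusted p under 0.05, and the median was -0.02. Genes of the mitochondrial genome had a median of 0.85, 14 of 15 had a higher fitted level, and 1 rose. The median was 0.52 without 4-week replicate 2, 0.49 without 14-week replicate 2, 1.19 with 4 rises without 4-week replicate 1, and 0.46 with the length and GC offset. The gene that rose was mt-Co1, a core subunit of cytochrome oxidase, with 100924, 71201 and 66195 CPM at 4 weeks and 144650, 156217 and 129619 CPM at 14 weeks (log2 fold change 0.85 ± 0.20, adjusted p = 0.0376, edgeR). Its ages did not overlap, but the call was lost in 5 of 6 fits without a sample. The summed level of the 15 genes was between 147167 and 284955 CPM at 4 weeks and between 317793 and 437959 CPM at 14 weeks, and scaling without these genes gave 276 calls, as many as with them. Among 77 mitochondrial and 78 cytosolic ribosomal protein genes 0 passed with edgeR and 0 with DESeq2, and 3 and 2 had an unadjusted p under 0.05. Hspb7, a small heat shock protein of heart muscle, was the 1 of 40 immediate early and stress genes that passed, rising from 2180 ± 353 to 3388 ± 117 CPM. Its call was lost in 5 of 6 fits without a sample, DESeq2 called 4 rises and 1 fall in the list, and 1.62% of all genes passed.

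Interferon-stimulated genes, which respond to viral and self nucleic acids, were lower at 14 weeks throughout the list. Of 40, 5 fell and none rose, all 40 had a lower fitted level, and 25 were lower without overlap, against 9.85% of all genes (median -1.15). Bst2, the antiviral tetherin, was 45.5, 44.8 and 46.5 CPM at 4 weeks and 17.6, 14.3 and 18.5 CPM at 14 weeks (log2 fold change -1.44 ± 0.30, adjusted p = 0.0205, edgeR). Irf7, the factor that amplifies the response, was 40.9, 39.3 and 24.1 CPM at 4 weeks and 14.3, 11.9 and 7.96 CPM at 14 weeks. The ages were clearly apart in both genes. Isg15, a ubiquitin-like modifier, fell from 12 ± 3.01 to 2.85 ± 1.22 CPM, and Ifi27l2a and Rtp4 had log2 fold changes of -1.32 ± 0.25 and -1.41 ± 0.33. All 5 calls were lost without 4-week replicate 3 and without each 14-week replicate. The summed level was between 494 and 939 CPM at 4 weeks and between 295 and 380 CPM at 14 weeks. Among 24 antigen presentation genes 0 passed with edgeR, 2 with DESeq2, and 5 had an unadjusted p under 0.05. H2-D1, H2-K1 and B2m of the MHC class I complex were 304 ± 41.6, 247 ± 56.9 and 434 ± 76.4 CPM at 4 weeks and 160 ± 20.3, 123 ± 28.6 and 246 ± 34.0 CPM at 14 weeks, with adjusted p of 0.0566, 0.128 and 0.214.

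Markers of non-muscle cells were mostly lower per CPM at 14 weeks. Of 30 endothelial markers 2 fell and 28 had a lower fitted level (median -0.51), with a summed level of 3330 to 3598 CPM at 4 weeks and 2446 to 2574 CPM at 14 weeks. Aplnr, the apelin receptor of growing vessels, was 94.8, 85.0 and 84.5 CPM at 4 weeks and 32.9, 25.6 and 28.7 CPM at 14 weeks (log2 fold change -1.60 ± 0.24, adjusted p = 0.00247, edgeR), and Egfl7, a secreted vessel factor, fell from 71.7 ± 9.58 to 38.1 ± 7.87 CPM. Aplnr passed without any of the 6 samples, Egfl7 lost its call in 5 of 6 such fits, and DESeq2 called 10 falls in the list. The defining genes Pecam1 and Cdh5 were 223 ± 13.5 and 307 ± 45.5 CPM at 4 weeks and 148 ± 15.5 and 184 ± 12.5 CPM at 14 weeks without passing (adjusted p = 0.101 and 0.0772). Of 23 fibroblast markers 2 fell, Col1a1 and the surface glycoprotein Thy1 (log2 fold change -1.08 ± 0.21, call lost in 4 of 6 such fits), with a median of -0.31 and summed levels of 2888 to 4019 CPM and 2701 to 3269 CPM. The fibroblast markers Tcf21 and Dpt were 10.6 ± 0.119 and 109 ± 22.2 CPM at 4 weeks and 7.65 ± 2.36 and 88.4 ± 13.6 CPM at 14 weeks and did not pass (adjusted p = 0.608 and 0.646). Of the 23 fibroblast markers, 18 had a lower fitted level at 14 weeks and 5 a higher one. Dcn, Gsn and Dpep1 had means of 462, 1713 and 39.8 CPM at 4 weeks and 465, 1552 and 73.8 CPM at 14 weeks. None of these 3 passed. The median of the fibrillar collagens was -1.38 beside -0.31 for the fibroblast markers. That difference, and the part of cell composition in the matrix genes, was not tested.

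Of 25 macrophage and monocyte markers 3 fell, with a median of -0.68 and summed levels of 676 to 859 CPM at 4 weeks and 510 to 566 CPM at 14 weeks. Cx3cr1, the fractalkine receptor, was 19, 12.4 and 13.3 CPM at 4 weeks and 6.29, 1.82 and 3.48 CPM at 14 weeks, and the complement gene C1qc fell from 107 ± 25.2 to 61.8 ± 4.11 CPM. These calls were lost in 4 and 5 of 6 fits that left out a sample. S100a9, an abundant protein of neutrophils, was 2.26, 4.83 and 1.89 CPM at 4 weeks and at 0, 0 and 1 count at 14 weeks, at least 46-fold lower against a floor of 3 counts per sample. The pan-leukocyte gene Laptm5 was the only fall by edgeR among 26 lymphocyte and pan-leukocyte markers (log2 fold change -1.16 ± 0.26), and its call was lost in 4 of those 6 fits. That was 3.85% of the list, beside 1.62% of all genes. DESeq2 called 6 falls in the macrophage list and 3 in the leukocyte list. Red cell genes had a median of -1.48 over 9 genes, of which Hbb-bt, a beta-globin, fell. Without 4-week replicate 2 the median was -0.83, and the call of Hbb-bt was lost in 5 of 6 fits that left out a sample. It was 32.4, 88.8 and 40.7 CPM at 4 weeks and 20.6, 15.1 and 13.9 CPM at 14 weeks. The paralog Hbb-bs, which shares much of its sequence so that reads may be split between them, was 329, 1059 and 581 CPM and 286, 222 and 258 CPM and did not pass. The summed red cell level, 448 to 1480 CPM at 4 weeks and 314 to 397 CPM at 14 weeks, was highest in 4-week replicate 2, and its part in other differences was not tested.

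The remaining lists held few calls. Among 13 adipocyte, 22 atrial and conduction, 12 valve, cartilage and bone, and 11 androgen response genes 0 passed with edgeR, and 2, 1, 0 and 2 passed with DESeq2, while 2, 5, 0 and 4 had an unadjusted p under 0.05. The atrial and conduction list had a median of -0.56, with 17 of 22 genes lower at 14 weeks in the fit, and -0.22 without 4-week replicate 2. Genes of the circadian clock (19), glucocorticoid-induced genes (16) and endoplasmic reticulum folding genes (26) also had 0 calls with edgeR, with 0, 1 and 0 by DESeq2 and 5, 1 and 4 at an unadjusted p under 0.05. Of 21 genes of DNA methylation and chromatin growth 1 fell (4.76%, beside 1.62% of all genes that passed), the Lmnb1 given above. Mal, a myelin and raft protein, was the 1 rise among 19 glial and neural genes (5.26%), going from 4.51 ± 0.340 to 27 ± 2.79 CPM. Clu, the secreted chaperone clusterin, was the 1 rise among 12 epicardial and mesothelial genes, at 323, 408 and 258 CPM at 4 weeks and 699, 936 and 841 CPM at 14 weeks (log2 fold change 1.32 ± 0.21, adjusted p = 0.00377, edgeR). Clu is also made by muscle cells and fibroblasts. DESeq2 called 1 rise and 1 fall in this list, whose median was -0.51, or 0.01 without 4-week replicate 3.

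**Figure D4:**
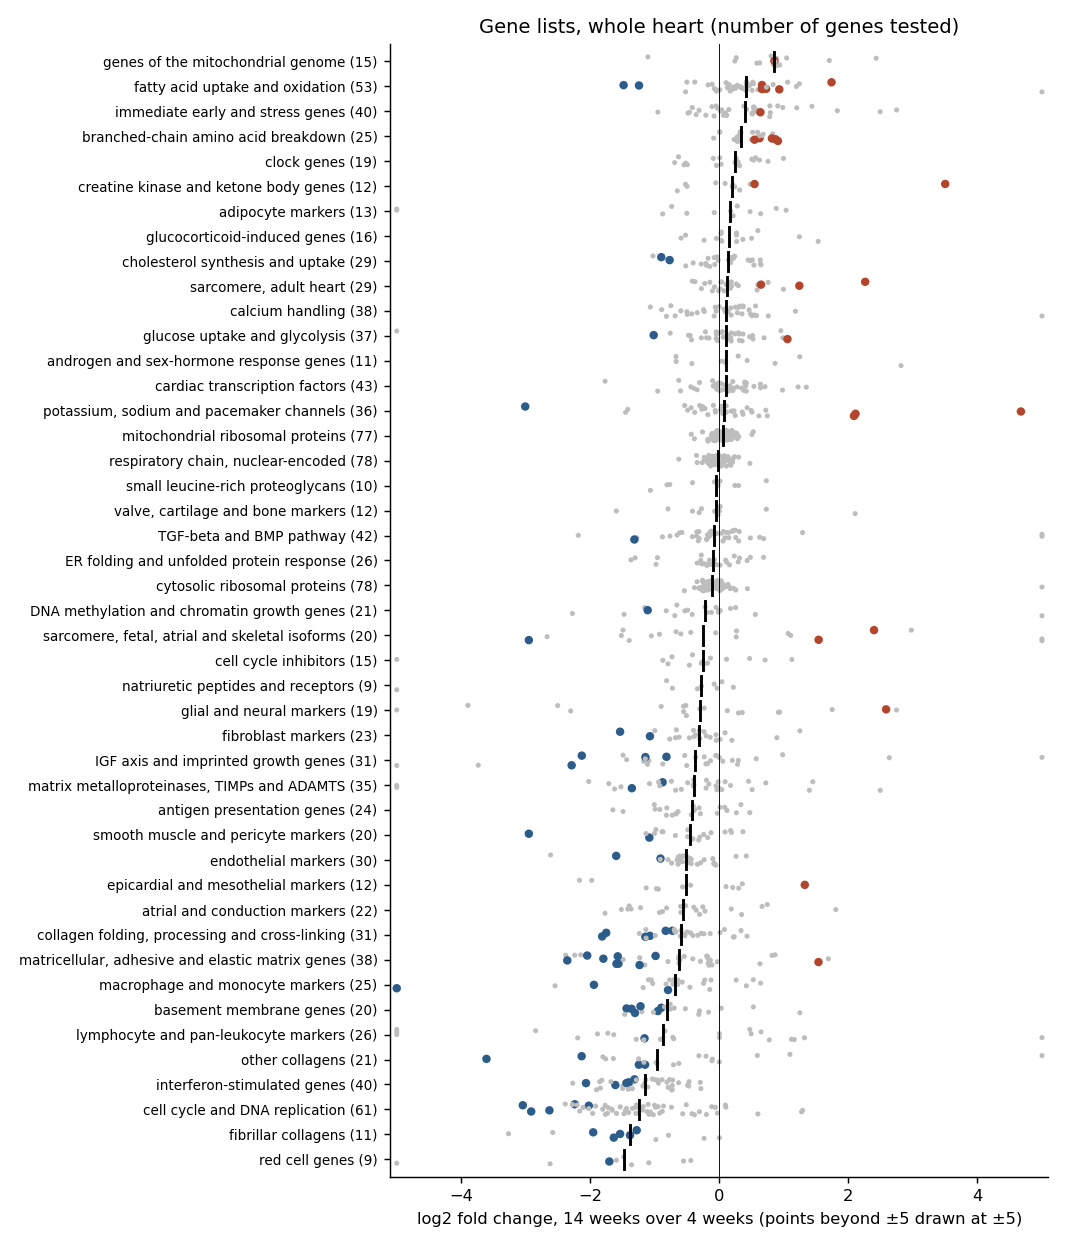
Log2 fold changes of the genes tested in each of 45 lists, ordered by their median (black bar), with grey points for genes that did not pass and red and blue for genes that rose and fell. The matrix, cell cycle and interferon lists lie to the left, with medians of -1.38, -1.25 and -1.15 for fibrillar collagens, cell cycle and interferon-stimulated genes, and fatty acid oxidation to the right, with 0.41.

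Most of the 276 genes, 187, belonged to no list. The rule for naming genes took the 12 widest rises and falls among protein-coding genes that passed, did not overlap and reached 10 CPM at an age, and the 5 smallest adjusted p in each direction. Cpxm2 (chr7:132032687-132154739, - strand), a carboxypeptidase-like secreted protein, had the widest rise of this kind, with 1.83, 3.90 and 0.0283 CPM at 4 weeks and 66.4, 81.7 and 76.4 CPM at 14 weeks. It was close to absent in 1 juvenile heart and strongly expressed in all adult ones, with a log2 fold change of 5.28 ± 0.89 (adjusted p = 0.00531, edgeR). Cxcl14 (chr13:56288643-56296551, - strand), a chemokine, had the smallest adjusted p of the rises, at 5.74, 5.43 and 6.64 CPM at 4 weeks and 39.2, 37.1 and 38.7 CPM at 14 weeks. The spread within each age was small beside the gap, and the log2 fold change was 2.69 ± 0.24 (adjusted p = 2.4e-05, edgeR). Ptgds, a prostaglandin D synthase, rose from 52.0 ± 39.4 to 293 ± 50.4 CPM, Inmt, an amine methyltransferase, from 1.88 ± 0.506 to 11.1 ± 1.41 CPM, and Optn, an autophagy receptor, from 56.1 ± 11.0 to 140 ± 9.25 CPM. Ifi205, Polq and Tmem150c had log2 fold changes of 3.47 ± 0.77, 2.90 ± 0.53 and 2.55 ± 0.38. Gm12224 (chr11:54340369-54353479, - strand), annotated as an antisense RNA, had 0 counts in all 4-week hearts and 3.17, 6.29 and 4.90 CPM at 14 weeks, at least 107-fold higher against the floor of 3 counts per sample. Whether the counting used strand was not stated, so its reads cannot be told apart from those of a gene on the other strand. Among the falls, C1qtnf6, a secreted relative of complement C1q, was 34.3, 40.7 and 41.6 CPM at 4 weeks and 8.03, 7.17 and 7.09 CPM at 14 weeks (log2 fold change -2.39 ± 0.24, adjusted p = 9.7e-05, edgeR). Frem2, a basement membrane adhesion protein of development, fell from 33.3 ± 7.32 to 5.74 ± 0.975 CPM.

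PDGFRα-expressing fibroblasts sorted from hearts of the same ages (3 samples at 4 weeks and 2 at 14 weeks) gave 701 calls among 17710 genes (3.96%), 317 rises (1.79%) and 384 falls (2.17%). Of the 144 genes that fell in whole heart, 45 also fell in fibroblasts, 1 rose and 98 did not pass, and of the 132 that rose, 10 rose, 0 fell and 117 did not pass, with 5 not tested. The comparisons share no sample, but the study's text describes the fibroblasts as isolated from the hearts analysed. The tissues may therefore share animals, which the labels do not link, and the counts and the test of the difference treat them as independent. In fibroblasts Col1a1, Col3a1, Col5a1 and Eln had log2 fold changes of -1.40, -1.74, -1.56 and -2.38, beside -1.54, -1.95, -1.64 and -2.05 in whole heart. All 4 passed in both tissues, and the difference between tissues did not pass for any of them (adjusted p of 0.889 to 1.00, edgeR).

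The difference between the tissues in the change from 4 to 14 weeks passed for 138 of 19380 genes (0.712%), 57 with a higher change in whole heart (0.294%) and 81 with a lower one (0.418%), among them 8 that rose and 13 that fell in whole heart. Acta2 had the clearest difference among the genes named here: it fell in whole heart, had a log2 fold change of 1.34 in fibroblasts (adjusted p = 0.129) and a difference of -4.28 ± 0.51 (adjusted p = 1.4e-04, edgeR). Myl9, outside the marker list, and Pdgfrb, also of smooth muscle cells and pericytes, had log2 fold changes of 0.35 and 0.23 in fibroblasts. Their differences were -2.15 ± 0.50 and -1.31 ± 0.28 (adjusted p = 0.0418 and 0.0296). Of the 20 markers in the smooth muscle and pericyte list, the difference passed for 3. Igf2 had a log2 fold change of -0.43 in fibroblasts and a difference of -1.86 ± 0.33 (adjusted p = 0.00662), and Mfap4 of -0.45 with a difference of -1.90 ± 0.38 (adjusted p = 0.0149). C1qc, C1qa and Csf1r, macrophage genes, were the reverse, with lower values in fibroblasts (-4.41, -4.05 and -3.68) than in whole heart (-0.80, -0.64 and -0.46). Of the 61 cell cycle genes 5 fell in whole heart and 15 in fibroblasts, with medians of -1.25 and -1.76, and the difference between these counts was not tested.

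**Figure D5:**
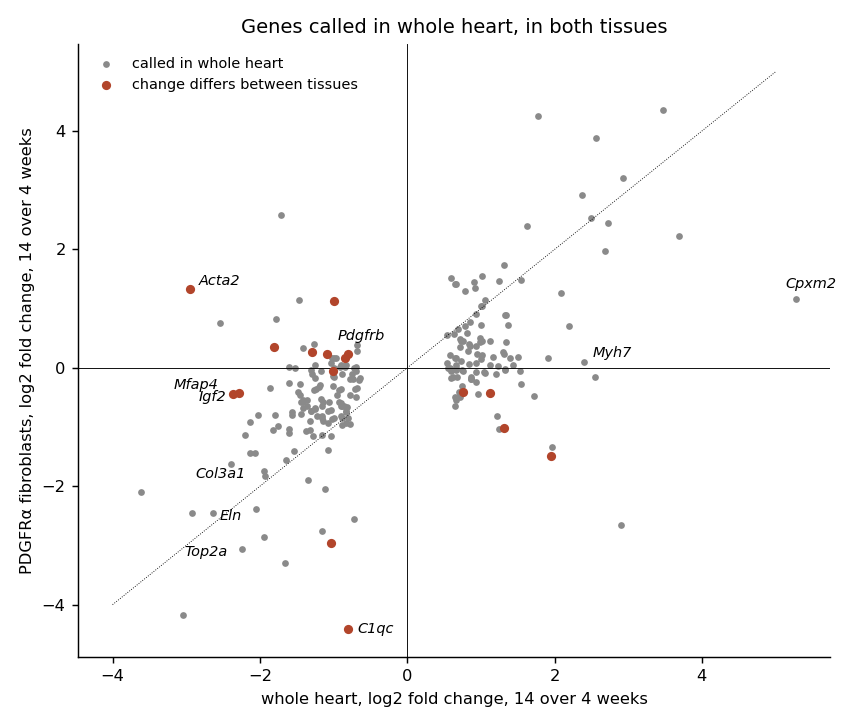
Log2 fold changes of 14 weeks over 4 weeks in whole heart (horizontal) and in PDGFRα-expressing fibroblasts (vertical) for the 249 genes called in whole heart with a mean of at least 0.1 CPM at both ages in both tissues; red points are the 16 whose change differed between the tissues by the test, and the dotted line marks equal change. Col3a1, Eln and Top2a lie near the line and Acta2 far above it.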

How the data were processed

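RNA-Seq was performed on polyadenylated RNA of 15 whole heart samples of 5 ages, with 3 per age, of which the 6 of 4 and 14 weeks were compared. The authors aligned single-end reads with STAR 2.5.3a to mm10 and deposited counts per gene made by the aligner, raw and whole-numbered. Which strand column was taken is not stated, and for a gene overlapped by another on the opposite strand the reads cannot be told apart.

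Symbols were matched to GENCODE M21 (95.4% of 22855) or RefSeq. Genes of chromosomes X and Y (859) and genes with no single known chromosome (791) were left out of the results. All 15 heart samples were fitted together with age as factor in edgeR 4.0.16 (R 4.3.3), with its default filter on low counts, TMM scaling and the quasi-likelihood F test, adjusted by Benjamini-Hochberg over all genes tested. The SE was taken as the ratio of the fold change on the log2 scale to the root of F, and fold changes were those of edgeR's fit with its default prior count. Log2 CPM for the comparison of samples used a prior count of 2. The change was compared between tissues by an interaction term. Depth was 46091271 to 67984404 counts per sample. SEs and p-values rest on a spread estimated over all 15 heart samples, with 3 per age, and not only over the 6 compared. The common coefficient of variation was 71.8%. Scripts were checked on simulated data.

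Genes were named by rule: the 12 widest changes per direction without overlap and with at least 10 CPM at an age, the 5 smallest adjusted p per direction, up to 6 list members by adjusted p and 2 by level, and genes the study names. A gene that met this rule is not reported here. The lists hold genes of the matrix, growth, the cell cycle, contraction, channels, metabolism, immunity and cell types. The members and lists were chosen with earlier results of these data known. Alternatives were DESeq2 1.42.0, other scalings and filters, fewer samples or genes in the fit, a replicate block, a length and GC offset, and each sample left out in turn. A covariate of sex-linked expression and a robust spread were added after seeing the data. Motifs were searched in the 250 bases before RefSeq starts. Promoters and coordinates of named genes are of the same build as the alignments.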

Additional observations from a re-analysis of the deposited data

Results flagged for a closer look

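The change from 4 to 14 weeks differed between whole heart and PDGFRα-expressing fibroblasts for 11 of the genes named, by an interaction term over all samples of both tissues (edgeR, adjusted over all genes tested). Differences are log2 fold change in whole heart minus that in fibroblasts. The smooth muscle and pericyte genes among these 11 had negative differences. They were -4.28 ± 0.51 for Acta2 (adjusted p = 1.4e-04), -2.15 ± 0.50 for Myl9 (adjusted p = 0.0418) and -1.31 ± 0.28 for Pdgfrb (adjusted p = 0.0296). The growth factor Igf2 and the microfibril gene Mfap4 had differences of -1.86 ± 0.33 (adjusted p = 0.00662) and -1.90 ± 0.38 (adjusted p = 0.0149).

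The macrophage genes Csf1r, C1qa and C1qc had positive differences of 3.23 ± 0.41, 3.41 ± 0.48 and 3.61 ± 0.73 (adjusted p = 2.8e-04, 7.5e-04 and 0.0167), and were lower at 14 weeks in the sorted fibroblasts by more than in whole heart. Mal rose in both tissues, with a difference of -5.18 ± 0.94 (adjusted p = 0.00820). S100a9 and Gm12224 had fitted differences of -14.74 ± 1.90 and 17.54 ± 3.13 (adjusted p = 4.3e-04 and 0.0149), which depend on the prior count because S100a9 had at most 1 count in each 14-week heart and Gm12224 had 0 counts in each 4-week heart.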

How the results depend on the processing

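DESeq2 called 859 genes (453 rose, 406 fell), library size in place of TMM 473 (61 rose, 412 fell), and a minimum of 10 counts in each heart sample gave 220 falls among 11182 genes tested. The length and GC offset gave 221 rises, and a fold minimum of 2 left 172 calls with 74 rises. With the ratio of Y-linked genes to Xist as a covariate 3 remained (1 rise, 2 falls), and 221 of the 276 kept an unadjusted p under 0.05. Leaving out 1 sample gave 74 to 256 calls, 35 to 125 rises and 39 to 131 falls. The 276 genes kept their direction in each fit that left out a sample, which is no measure of their stability. For all but 1 of them the samples of the ages did not overlap, so taking out a sample left almost no room for a reversal. The other alternatives gave between 212 and 410 calls. Among them, a fit of only the samples of 4 and 14 weeks gave 225 calls, with 177 of the 276 shared. The replicate numbers do not pair the samples by label. Deviations of log2 CPM from the mean of the age correlated at 0.00, -0.02 and -0.02 between same-numbered samples of 4 and 14 weeks. The replicate block gave 212 calls, 201 of them shared, or 358 with the length and GC offset. The block gave 1 call in place of 5 in branched-chain amino acid breakdown. Tgfbr1 and Mmp19, which did not pass, turned sign with library size (-0.17 and -0.19), without 4-week replicate 2 (-0.36 and -0.11) and without 14-week replicate 2 (-0.03 and -0.29), their ranges without a sample being -0.36 to 0.61 and -0.29 to 0.41, and with the sex-linked covariate Postn was 0.16 and Mmp3 -2.88. The difference between tissues passed for 696 genes with DESeq2, 252 with library size and 124 with only the samples of both ages. The cause of these shifts was not tested. With 3 samples per age and a coefficient of variation of 71.8%, small changes of low genes were not detectable.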
